A study of Mus musculus with 2 samples.

Results

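Type I interferon-stimulated genes are the genes that a cell switches on when it senses type I interferon. A fixed list of 34 of them was taken by gene symbol from the 31053 genes of the count matrices, and all 34 were found. They were described in mouse liver cells from 1 library of mice with partial inferior vena cava ligation (pIVCL) and 1 library labelled Control, whose title calls it healthy. Both were C57BL/6 livers profiled by droplet-based 3' single-cell RNA sequencing of a mixed suspension of hepatocytes and non-parenchymal cells. The protocol text, the same for both libraries, gives ligation for 6 weeks starting at 8 to 10 weeks of age, as a model of congestion with portal hypertension. The sources used here do not say whether Control mice had a sham operation or how many animals each library holds. With 1 library per group no difference was tested: values are transcript counts as unique molecular identifiers (UMIs), scaled to 1000000 UMIs of a cell class (CPM). A 3' tag is counted once per molecule, so this scale does not depend on gene length, and all intervals are 95% intervals that cover counting error only.

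Type I interferons, interferon-beta and the interferon-alphas, bind the receptor pair IFNAR1 and IFNAR2, whose kinases JAK1 and TYK2 pass the signal on by phosphorylation. A transcription factor complex that holds STAT2 and IRF9 then binds the interferon-stimulated response element in the promoters of target genes. The products sense viral RNA or DNA, amplify the signal, block translation and budding of viruses, or remove the signal again. In liver, Kupffer cells hold basal levels of many of these genes, and plasmacytoid dendritic cells are known as strong interferon producers.

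The element that joins these genes was visible in their promoters. RefSeq promoter sequences (build GRCm38.p6, 250 bases before to 50 bases after the start site) were matched by symbol for 26 of the 34 genes. The core of the element, GAAA followed after any 2 bases by GAAA again, on either strand, occurred in 14 of the 26, or 53.8%, against 3.99% of the 27025 genes with a promoter in that table. In 10 of the 14 a match lay before the start site. The windows shown here were picked from genes with a match before the start site and with large differences or levels below. Ifit3b was added for its likeness to Ifit3. Cmpk2 and Irf7, which also differ below, had a promoter sequence but no match to the core. Matches were not compared with the size of the differences. The windows are read 5′ to 3′ on the gene's strand, with matches to the core or its reverse complement in capitals.
Isg15: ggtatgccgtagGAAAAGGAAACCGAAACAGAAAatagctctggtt
Ifit1: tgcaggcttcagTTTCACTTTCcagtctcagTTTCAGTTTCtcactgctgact
Ifit3: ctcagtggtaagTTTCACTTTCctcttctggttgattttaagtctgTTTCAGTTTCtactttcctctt
Ifit3b: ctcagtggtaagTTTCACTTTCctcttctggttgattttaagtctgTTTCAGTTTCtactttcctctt
Rsad2: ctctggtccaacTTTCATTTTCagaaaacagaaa
Bst2: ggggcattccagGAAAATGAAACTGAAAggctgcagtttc

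The Isg15 window, chr4:156200863-156200908 on the minus strand, held 3 overlapping matches. The Ifit1 window, chr19:34640773-34640825 on the plus strand, held 2 separate matches, as did those of its family members Ifit3, chr19:34583361-34583428, and Ifit3b, chr19:34607757-34607824. The Ifit3 and Ifit3b windows were identical over all 68 bases, which lie before the start site and so outside the counted transcripts. Whether these near copies share reads was not tested, and their counts are uncertain. The single match of Rsad2 lay in chr12:26456551-26456584, and 2 overlapping matches of Bst2 in chr8:71537575-71537614, each on the minus strand. Each window lies upstream of the annotated gene. A match is a stretch of letters, not a measured binding site.

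**Figure D1:**
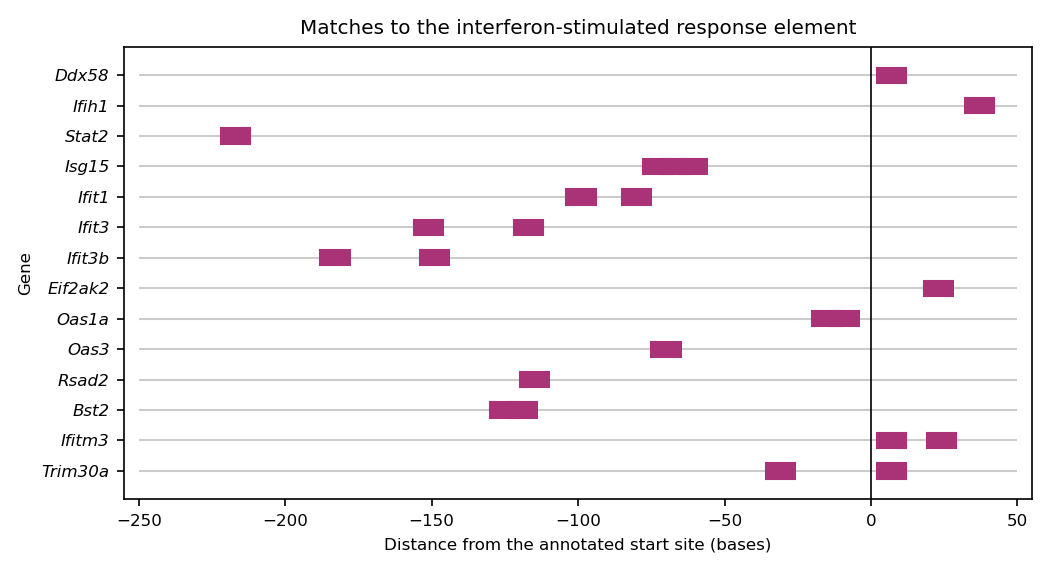
Position of each match to the element core (GAAA, any 2 bases, GAAA), on either strand, in the promoter windows of the 14 genes that hold one. The horizontal axis is the distance in bases from the annotated start site, each grey line is 1 gene's window, and each block is a match. In 10 genes a match lies before the start site.

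After filters, 2718 Control cells and 5443 pIVCL cells were kept, the median cell held 5263.5 UMIs in Control and 2005 UMIs in pIVCL, and 9 of the kept barcodes occurred in both libraries. Clusters were built with interferon genes left out of the variable genes, and were named only from marker genes, none of them among the 34. A doublet caller marked 0.293% and 0.0551% of cells and so did not work on the pIVCL library, and doublets may remain. The 5 classes with at least 100 cells in each library were compared. They were liver sinusoidal endothelial (LSEC)-like cells (1053 Control, 603 pIVCL), Kupffer-like cells (318 and 775), hepatocyte-like cells (407 and 1833), T cell-like cells (190 and 328) and B cell-like cells (138 and 1050). All 9 LSEC markers were detected in each LSEC-like cluster, and 8 or 9 of the 9 Kupffer markers in each Kupffer-like cluster. Some clusters were nearly of 1 library: 758 of the cells of LSEC-like cluster 3 came from Control against 6 from pIVCL, and 16 against 475 of those of cluster 6. Cluster and library cannot be told apart there.

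No transcript of a type I interferon was found beyond single UMIs. Over 18 type I interferon genes, the kept cells held 1 UMI in Control, from Ifnz, and 0 in pIVCL, and Ifnb1 had 0 UMIs in each library. A count of 0 of 27603002 UMIs allows a level of up to 0.109 CPM in pIVCL. The 2 type III interferon genes had 0 UMIs in each library. Type II interferon, Ifng, made by T and NK cells and able to induce part of the same genes, had 217 UMIs (11 CPM) in Control and 181 UMIs (6.56 CPM) in pIVCL.

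The receptor genes had UMIs in all 5 compared classes. Ifnar1 was at 38.3 CPM in Control and 69.9 CPM in pIVCL LSEC-like cells, a ratio of 1.82 (1.48 to 2.25). It was at 51.2 and 49.5 CPM in Kupffer-like cells and at 17.8 and 15 CPM in hepatocyte-like cells. The Ifnar1 ratio interval lay above 1 in LSEC-like cells and held 1 in the other 2 classes (0.671 to 1.39 and 0.677 to 1.04). Ifnar2 was at 106 and 107 CPM in LSEC-like cells, 203 and 162 CPM in Kupffer-like cells and 25.9 and 34 CPM in hepatocyte-like cells. Its ratio interval held 1 in LSEC-like cells, lay below 1 in Kupffer-like cells (0.659 to 0.96) and above 1 in hepatocyte-like cells (1.11 to 1.55).

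The 34 genes were present at very unequal levels across cell classes. Ifitm3, an endosomal membrane protein that blocks virus entry, Bst2, or tetherin, which holds budding virus at the membrane, and Ifi27l2a, a small mitochondrial protein, made up most of the UMIs, so sums are also given over the other 31 genes. In Control, these 31 genes summed to 3620 CPM in Kupffer-like cells, 3379 CPM in hepatic stellate-like cells (157 cells), 2156 CPM in LSEC-like cells and 2045 CPM in vascular endothelial-like cells (159 cells). The sum was 1092 CPM in T cell-like cells, 1058 CPM in B cell-like cells and 306 CPM in hepatocyte-like cells. The intervals of LSEC-like (2119 to 2194) and vascular endothelial-like cells (1969 to 2124) overlapped, and those of T and B cell-like cells overlapped widely, so neither pair could be ordered. Hepatocyte-like cells were the lowest of these 7 classes.

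Single genes were highest in different classes, and most did not stand clear of the next class by their intervals. Of the 34 genes, in Control 12 were highest in Kupffer-like cells and 12 in hepatic stellate-like cells, among 11 named classes with at least 20 cells. In pIVCL, where 18 classes reached 20 cells, 10 were highest in LSEC-like cells, 6 in monocyte/macrophage-like cells and 5 in Kupffer-like cells. The top class was the same in both libraries for 11 genes, and it stood clear of the next class by its interval for 15 genes in Control and 6 in pIVCL. The classes ranked differ between the libraries: monocyte/macrophage-like cells, with 15 cells in Control, were not ranked there. The same ranking was not made over all genes, so these counts cannot be called a trait of the list. Irf7, the transcription factor that amplifies interferon production, was highest in Kupffer-like cells in both libraries, at 600 CPM (560 to 643) in Control and 438 CPM (402 to 478) in pIVCL. Bst2, a surface marker of mouse plasmacytoid dendritic cells, was highest in pDC-like cells, at 3441 CPM in 24 Control cells and 3341 CPM in 37 pIVCL cells. Its next class was far lower in each library, at 986 and 884 CPM.

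Hepatic stellate-like cells, the vitamin A-storing pericytes of the sinusoid, stood out in Control for transcripts of Ifit1 and Ifit3, of the RNA-binding IFIT family, and of Isg15, a ubiquitin-like protein. Ifit3 was at 402 CPM (361 to 446) there against 116 CPM in the next class, and Isg15 was at 423 CPM (381 to 469) against 231 CPM. Ifit1 was at 149 CPM (125 to 177) against 51.4 CPM. Ifit2 was instead highest in LSEC-like cells, at 127 CPM (119 to 137), and the Ifit3b interval overlapped that of the next class. In the 43 stellate-like cells of pIVCL, Ifit3 was at 91.5 CPM (48.7 to 157) from 13 UMIs, and Isg15 at 282 CPM (201 to 384) from 40 UMIs. The sum of the 31 genes in this class was 3379 CPM in Control and 1958 CPM in pIVCL. Of the Control cells of this class, 70 formed a cluster with 0 pIVCL cells. Leukocyte transcripts summed to 295 and 838 CPM and hepatocyte transcripts to 11126 and 13922 CPM in these cells, and their part in the difference was not tested.

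**Figure D2:**
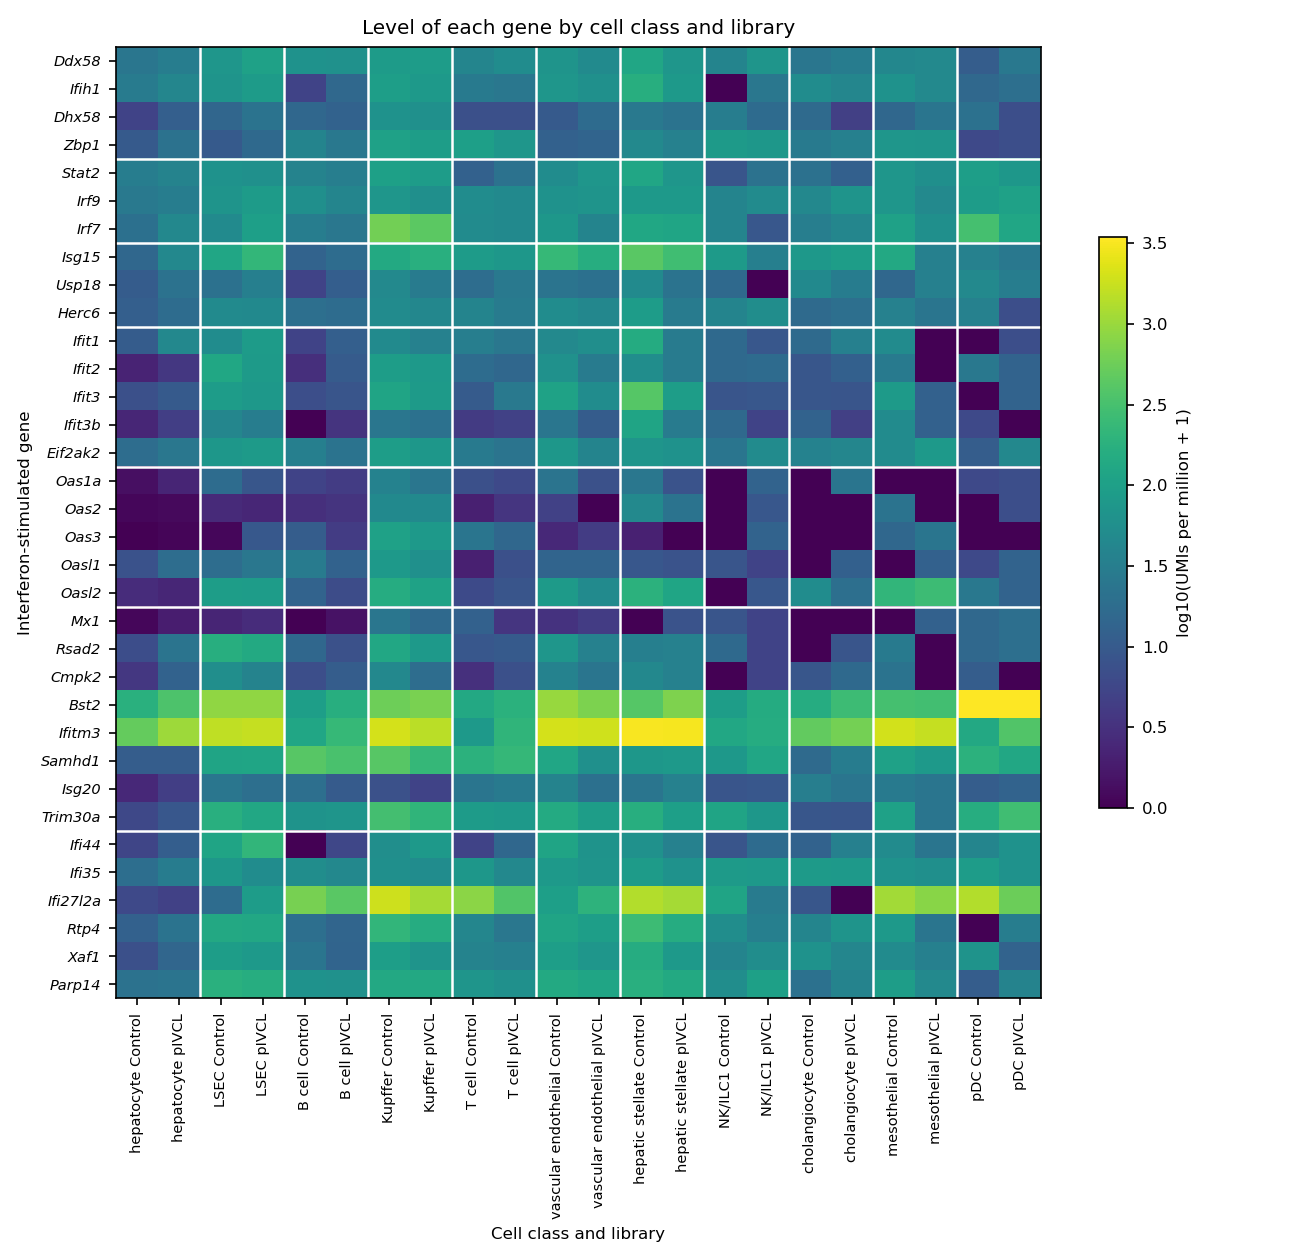
Level of each of the 34 genes (rows, grouped by role between the white lines) in each named class with at least 20 cells in both libraries (columns, Control then pIVCL), as log10 of CPM plus 1, on the colour scale. Ifitm3, Bst2 and Ifi27l2a form the bright rows, Irf7 is brightest in Kupffer-like cells, and the hepatocyte-like columns are dark for most other genes.

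To see how many cells carried the transcripts, every cell was thinned to 1000 UMIs and shallower cells were left out. In hepatocyte-like cells, 73.7% (68.9 to 78.1) of 369 Control cells and 59.2% (56.6 to 61.8) of 1417 pIVCL cells had no UMI of the 31 genes. In Kupffer-like cells the share without a UMI was 7.17% (4.23 to 11.2) of 237 Control cells and 14.3% (10.9 to 18.3) of 370 pIVCL cells. LSEC-like cells were close in both libraries, at 21.1% (18.5 to 24) of 890 and 18.5% (15.3 to 22.2) of 518 cells. Cells rich in the transcripts, with at least 5 UMIs of the 31 genes, made up 26.2% of Control and 17.3% of pIVCL Kupffer-like cells, with intervals of 20.7 to 32.2 and 13.6 to 21.5 that overlap. They made up 10.3% and 14.3% of LSEC-like cells and 0.271% and 0.353% of hepatocyte-like cells. Single cells went far beyond this: the highest Control LSEC-like cell held 39 such UMIs from 16 of the genes in its 1000, and the 1 Control hepatocyte-like cell with at least 5 held 29 from 10 of the genes.

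**Figure D3:**
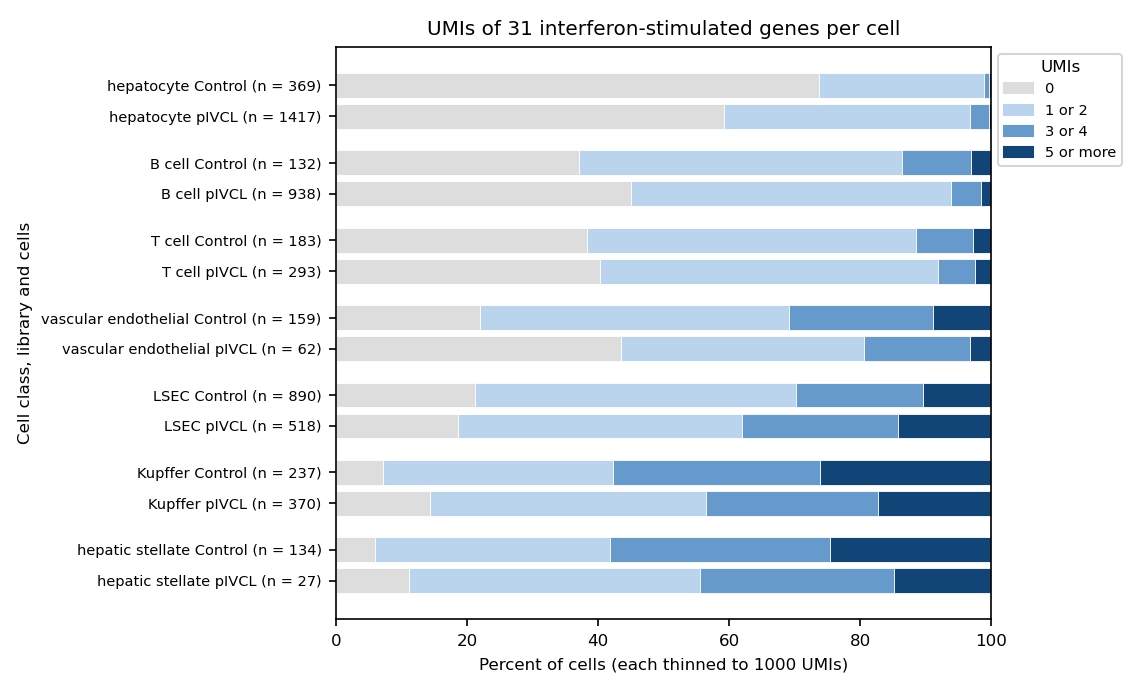
Percent of cells with 0, 1 or 2, 3 or 4, and 5 or more UMIs of the 31 genes (all but Ifitm3, Bst2 and Ifi27l2a), each cell thinned to 1000 UMIs, by class and library, with the number of cells. The grey share without a UMI is largest in hepatocyte-like cells and smallest in Kupffer-like and hepatic stellate-like cells.

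Hepatocyte-like cells were the class in which most of the genes were higher in the pIVCL library. Of 31 genes with at least 20 UMIs in both libraries together, 29 had a ratio above 1, where 51.4% of all 11281 genes measured did. The count at least 1.5-fold higher on the scale of CPM plus 20 was 6, where 2.51% of all genes were, and 0 were at least 1.5-fold lower, where 1.74% were. The interval of the plain ratio lay above 1 for 26 genes, where it did for 23% of all genes, and below 1 for 0, where it did for 21.8%. On the log2 scale of CPM plus 20, the median over the 31 genes was 0.31, beside 0.01 over all genes. Oas2, Oas3 and Mx1 had under 20 UMIs.

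Sensors and transcription factors were part of it. Zbp1, a sensor of Z-form nucleic acid, was at 9.06 CPM (6.99 to 11.5) in Control and 20.4 CPM (18.4 to 22.6) in pIVCL. Irf7 was at 19.5 CPM (16.4 to 23) and 43.6 CPM (40.6 to 46.8), a ratio of 2.23. The RNA helicase sensors Ddx58 (RIG-I) and Ifih1 (MDA5) had smaller ratios, of 1.29 and 1.48. Stat2 and Irf9, parts of the factor that binds the element, had ratios of 1.23 (1.05 to 1.44) and 1.2 (1.01 to 1.43). All 4 sensors and all 3 factors were above 1 in this class.

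The effector genes held the largest ratios. Ifit1, which binds viral RNA caps, was at 9.76 CPM (7.61 to 12.3, 70 UMIs) in Control and 44.4 CPM (41.3 to 47.6, 792 UMIs) in pIVCL. Its ratio was 4.55 (3.56 to 5.89). Isg15 was at 14.2 CPM (11.6 to 17.3) and 43.6 CPM (40.6 to 46.8), a ratio of 3.07 (2.49 to 3.81). The intervals of the libraries do not overlap for either gene. Rsad2, or viperin, an enzyme that makes a chain-terminating nucleotide, was at 5.85 and 22.2 CPM, a ratio of 3.79 (2.75 to 5.34). Its chromosomal neighbour Cmpk2, a mitochondrial nucleotide kinase, was at 2.79 and 12 CPM, a ratio of 4.32 (2.73 to 7.22). The abundant genes differed less in ratio and more in CPM: Ifitm3 was at 493 and 1056 CPM (ratio 2.14) and Bst2 at 177 and 349 CPM (ratio 1.98).

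Few genes stood outside this pattern. Ifi27l2a was at 5.02 and 3.75 CPM, a ratio of 0.748 (0.492 to 1.16), and Oasl2, an OAS-like protein, at 1.81 and 1.4 CPM, a ratio of 0.773 (0.381 to 1.65). Samhd1, which depletes nucleotides, was at 9.9 and 10.1 CPM, and Parp14, an ADP-ribosyltransferase, at 20.6 and 22.1 CPM. The intervals of these 4 genes' ratios held 1, as did that of Oas1a, an OAS enzyme with 3 and 24 UMIs (0.977 to 16.7). After thinning, the share of hepatocyte-like cells with an Isg15 UMI was 1.63% (0.599 to 3.51) in Control and 4.73% (3.68 to 5.97) in pIVCL, with 38 and 416 shallower cells left out. Without thinning, 15.5% of Control cells with a median of 12484 UMIs and 20.5% of pIVCL cells with a median of 2721 UMIs had one. In B cell-like cells, the class with the lowest Isg15 share among those compared, the thinned share was 1.52% and 1.6% (4.35% and 3.05% unthinned), where cells had a median of 3253.5 UMIs in Control and 1834.5 UMIs in pIVCL.

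The hepatocyte result depended on which cells were counted. Control hepatocyte-like cells were mostly cluster 13 (216 Control, 1 pIVCL), led by perivenous genes such as Glul and Cyp2e1, and pIVCL cells were mostly cluster 4 (5 and 700) and cluster 2 (64 and 704). These zonation genes were chosen after their values were seen. In the class as a whole Glul was at 1629 and 48.4 CPM and the periportal gene Cyp2f2 at 576 and 1097 CPM. Clusters 13 and 4 together held 89.8% of the Control and 81.9% of the pIVCL UMIs of the class. There 30 of 31 genes were above 1, where 48.3% of all genes were, with a median of 0.35 beside -0.01. Each of these clusters was nearly of 1 library, so cluster and library cannot be told apart in this comparison. In hepatocyte-like cells with more Cyp2f2 than Cyp2e1 UMIs (147 and 988 cells), 28 of 29 genes were above 1, where 60.6% of all genes were. The ratio of Ifit1 in these cells was 4.59 (3.16 to 6.92). In cells with more Cyp2e1 than Cyp2f2 UMIs (230 and 414 cells), 27 of 29 were above 1, where 49.1% of all genes were. The Ifit1 ratio there was 4.06 (2.9 to 5.8). The 2 Ifit1 intervals overlap, and the difference between the sides was not tested.

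The list as a whole was not higher in hepatocyte-like cells poor in mitochondrial RNA. With at least 1000 UMIs and at most 10% mitochondrial UMIs, 106 Control and 645 pIVCL cells remained, holding 6.22% and 10.6% of the class UMIs, of which 50% and 73% were in cluster 2. Of 24 genes measured there, 9 were above 1 and 15 below, and the median was -0.06, beside -0.01 over all genes. With the mitochondrial limit alone, 10 of 24 were above 1, where 49% of all genes were. The ratio was 1.16 (0.78 to 1.78) for Isg15, 1.41 (0.628 to 3.72) for Ifit1 and 0.392 (0.183 to 0.88) for Rsad2, while Ifitm3, Bst2 and Irf7 had ratios of 1.89 (1.68 to 2.12), 1.97 (1.6 to 2.45) and 2.19 (1.14 to 4.71). In cluster 2 alone, the 31 genes summed to 923 CPM in Control and 567 CPM in pIVCL, and the ratio intervals of Ifitm3 (0.991 to 1.29) and Bst2 (0.988 to 1.74) held 1. In cluster 14 (48 Control and 75 pIVCL cells) the sum of the 31 genes was higher in pIVCL, at 476 CPM (398 to 565) and 938 CPM (826 to 1061). So it was in cluster 23 (48 and 72 cells), at 198 CPM (132 to 284) and 668 CPM (553 to 800). The direction of the list as a whole thus depended on the hepatocyte-like cells chosen. These choices do not separate mitochondrial share from cluster and depth. In clusters 13 and 4 the median mitochondrial share was 20.4% in Control and 19.3% in pIVCL. Over the whole class the median share was 18.2% in Control and 3.61% in pIVCL, and its part in the result was not tested beyond these choices of cells. Leukocyte transcripts summed to 41.1 and 47.5 CPM and endothelial transcripts to 126 and 34.8 CPM in the class. In the cells in the lower part of the class by these transcripts (170 and 1175 cells), 25 of 29 genes were above 1, where 56.5% of all genes were. The median there was 0.36, beside 0.03 over all genes.

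**Figure D4:**
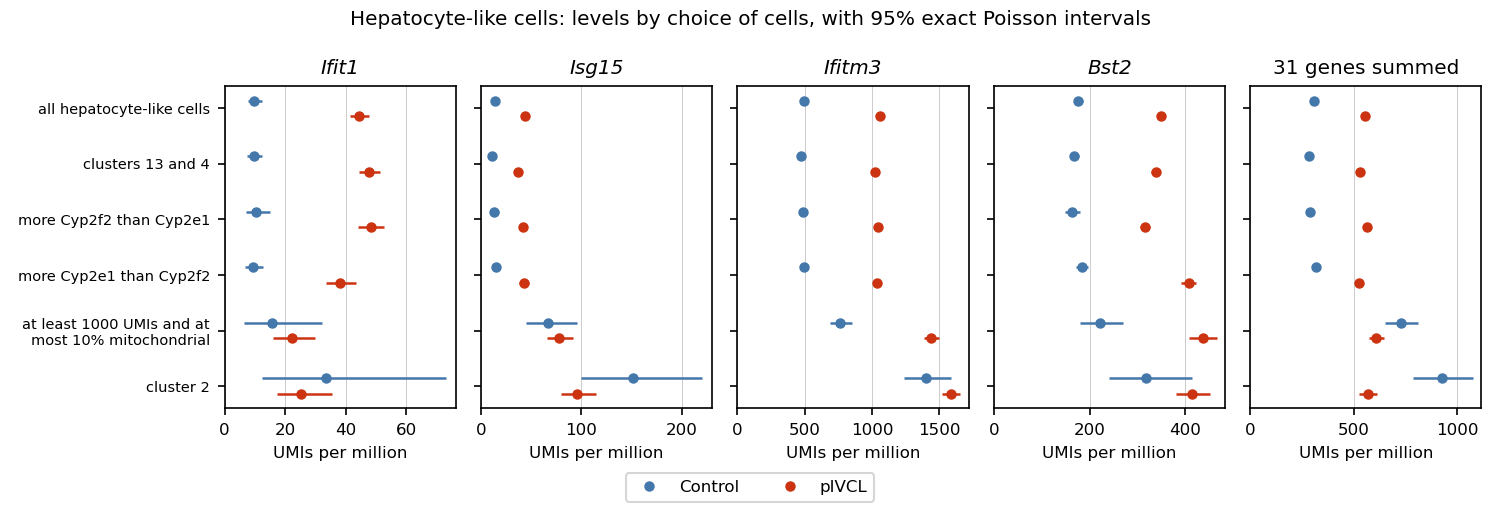
Levels of Ifit1, Isg15, Ifitm3, Bst2 and the sum of 31 genes in hepatocyte-like cells (CPM, linear axes from 0) for 6 choices of cells, Control blue and pIVCL red, with exact Poisson intervals as lines. In the upper 4 choices the pIVCL points lie to the right for every quantity, and in the mitochondria-poor cells and in cluster 2 the 31-gene sum lies to the left.

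In Kupffer-like cells, the resident macrophages of the liver, most of the genes were lower in the pIVCL library. Of 33 genes measured, 27 had a ratio below 1 and 6 above it, where 36.6% of all 8985 genes were above 1. The interval lay below 1 for 13 genes, where it did for 18.6% of all genes, and above 1 for 2, where it did for 11.1%. The count at least 1.5-fold lower was 4, where 5.38% of all genes were, and the count at least 1.5-fold higher was 0, where 5.97% were. The median log2 ratio was -0.30, beside -0.10 over all genes, so genes in general were lower in this class too.

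The 4 genes past 1.5-fold were Samhd1, Cmpk2, Ifi27l2a and Rsad2. Samhd1 was at 416 CPM (383 to 452) in Control and 229 CPM (203 to 258) in pIVCL, a ratio of 0.55. Cmpk2 was at 43.2 CPM (32.9 to 55.7) and 17.6 CPM (10.9 to 26.9) from 59 and 21 UMIs. Ifi27l2a was at 1870 and 1137 CPM, a ratio of 0.608 (0.569 to 0.65), and Rsad2 at 129 and 78 CPM, a ratio of 0.602 (0.463 to 0.778). The Control and pIVCL intervals did not overlap for any of the 4. Ifitm3 (2055 and 1502 CPM), Irf7 (600 and 438 CPM) and Trim30a, a TRIM protein that restrains toll-like receptor signals (299 and 205 CPM), were lower by less. Their ratios over the whole class were 0.731, 0.73 and 0.687.

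Among the OAS enzymes, which make the second messenger that activates RNase L, Oas2 was equal in the libraries at 46.1 CPM each. Oas3 was at 104 and 80.5 CPM, with a ratio interval of 0.592 to 1.01, and Oasl2 at 154 and 107 CPM, with one of 0.554 to 0.87. All 3 transcription factors and all 5 IFIT and PKR genes had ratios below 1. Isg15 did not follow, at 141 CPM (122 to 163) and 168 CPM (145 to 193), a ratio of 1.19 (0.97 to 1.46). Bst2 (567 and 676 CPM, ratio 1.19, 1.08 to 1.32) and Ifi44, a GTP-binding protein of unclear role (54.9 and 81.3 CPM, ratio 1.48, 1.09 to 2.03), were higher in pIVCL. Genes of this pathway thus lay on both sides of 1 in this class.

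Depth and free hepatocyte RNA moved with this comparison. The median depth of Kupffer-like cells was 2275 UMIs in Control and 967 in pIVCL, and hepatocyte transcripts summed to 8134 and 24923 CPM. The part of either in the differences was not tested. The deep cluster 9 held 144 of the Control and 151 of the pIVCL cells, and the shallow cluster 1 held 174 and 624. The 31 genes summed to 3904 and 3401 CPM in cluster 9 and to 2509 and 2227 CPM in cluster 1. The part of this cluster mix in the ratios of the whole class was not tested. Within cluster 9 the median was -0.14, beside -0.04 over all genes, and 12 of 33 genes were above 1, where 43.9% of all genes were. Within cluster 1 the median was -0.16, beside -0.01, and 12 of 30 were above 1, where 49.2% of all genes were. In cluster 9, 2 genes were at least 1.5-fold lower. In cluster 1, 4 were at least 1.5-fold lower and 2 higher, among them Ifi44 (17.9 and 60 CPM from 5 and 37 UMIs). These counts past 1.5-fold have no share of all genes beside them. Ifi27l2a was lower in both (ratios 0.67 and 0.474), as were Ifitm3 (0.666 and 0.67) and Irf7 (0.689 and 0.763). Samhd1 was lower in cluster 9 (0.657, 0.552 to 0.78), and its interval in cluster 1 held 1 (0.57 to 1.16). Trim30a was lower in cluster 9 (0.805, 0.666 to 0.97). In cluster 1 its ratio was 1.29, with an interval that held 1 (0.839 to 2.05). Cmpk2 was lower in cluster 9 (0.364, 0.172 to 0.702) and had only 2 and 10 UMIs in cluster 1, with an interval of 0.482 to 21.2, and for Rsad2 both intervals held 1 (0.608 to 1.07 and 0.525 to 3.62). In the cells in the lower part of the class by hepatocyte RNA (229 and 318 cells), the median was -0.18, beside -0.06 over all genes. There 10 of 33 genes were above 1, where 41% of all genes were. Samhd1, Ifi27l2a and Ifitm3 had ratios of 0.609, 0.657 and 0.706 in these cells. After thinning, the share of cells with an Irf7 UMI was 46% (39.5 to 52.6) in Control and 31.6% (26.9 to 36.6) in pIVCL, with 81 and 405 cells left out and unthinned shares of 66% and 38.2%. In B cell-like cells the thinned Irf7 share was 2.27% and 2.24% (10.9% and 4.48% unthinned).

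**Figure D5:**
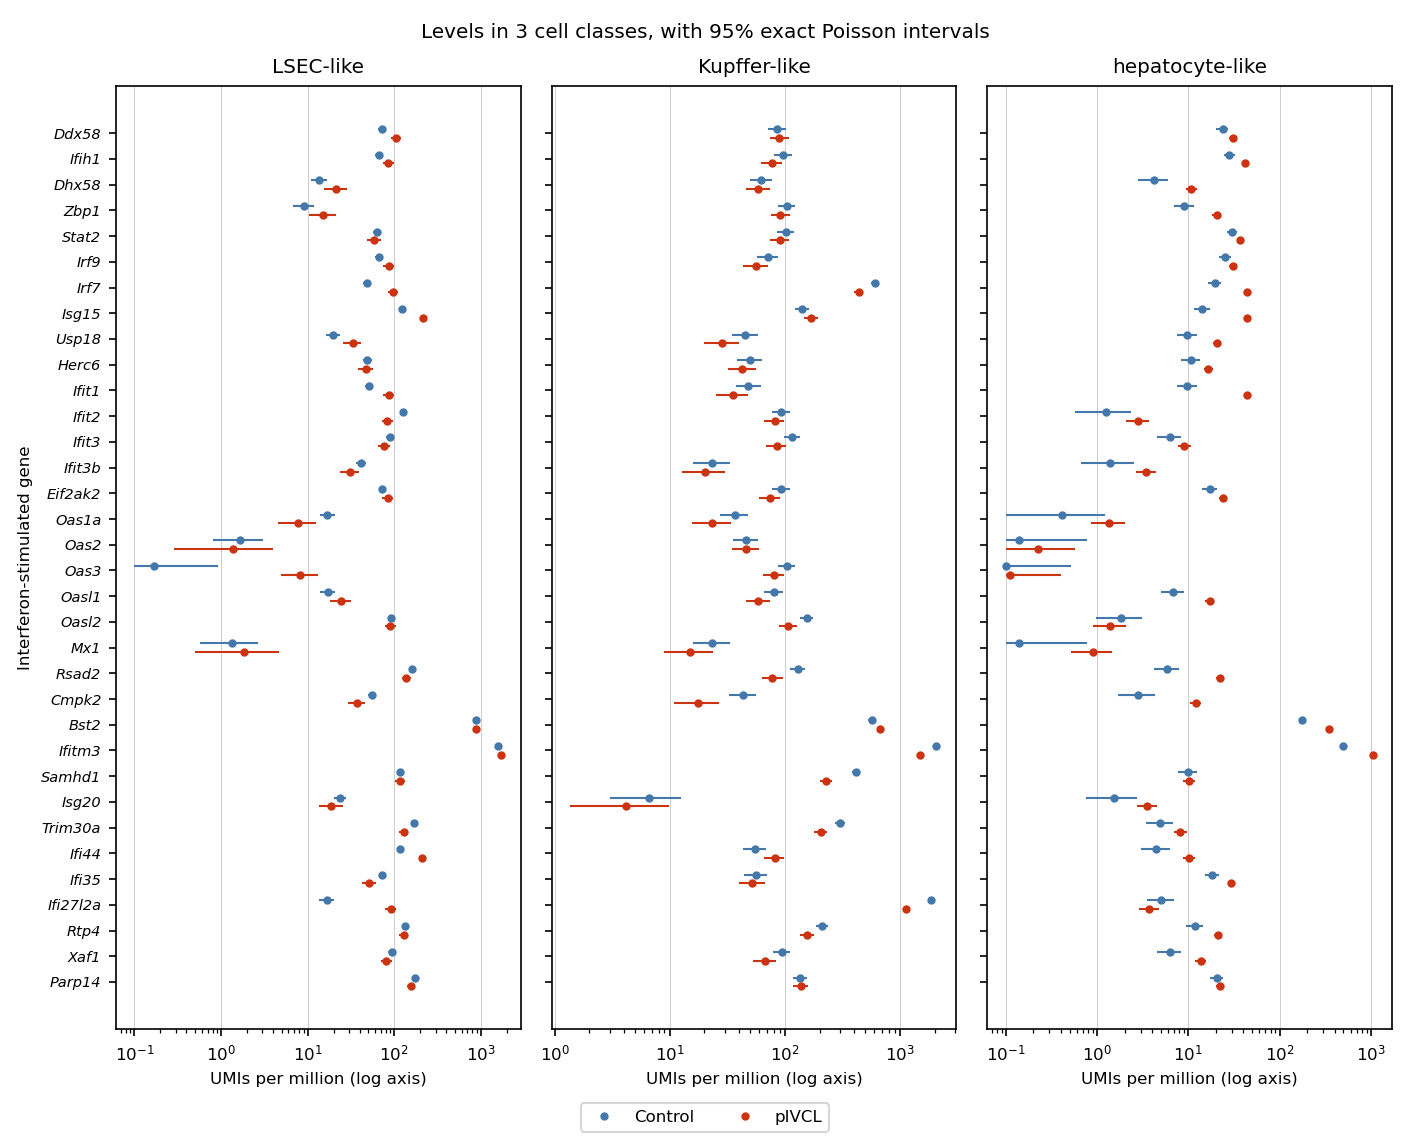
Level of each of the 34 genes in LSEC-like, Kupffer-like and hepatocyte-like cells in CPM on a log axis, Control blue and pIVCL red, with exact Poisson intervals as lines; values and bounds under 0.1 CPM are drawn at 0.1. In hepatocyte-like cells the red points lie to the right for 29 of 31 measured genes, in Kupffer-like cells they lie to the left for 27 of 33, and in LSEC-like cells they lie on both sides.

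In LSEC-like cells, the fenestrated lining of the sinusoid, the genes split. Of 31 measured, 15 had a ratio above 1, where 49.7% of all 11192 genes did, and the median log2 ratio was -0.00, as over all genes. The interval lay above 1 for 13 genes, where it did for 21.3% of all genes, and below 1 for 7, where it did for 19.4%. The count at least 1.5-fold higher was 4, where 6.36% of all genes were, and the count at least 1.5-fold lower was 0, where 4.62% were. Over the whole class, the median and the share above 1 were thus near those of all genes. In cells without any leukocyte UMI (590 and 326 cells), 18 of 31 genes were above 1, where 47.5% of all genes were, with a median of 0.12 beside -0.02.

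All 4 sensors were on the higher side, as were 2 of 3 transcription factors and 2 of 3 genes of the ISG15 pathway. Among the sensors, Ddx58 was at 71.9 CPM in Control and 104 CPM in pIVCL, a ratio of 1.45 (1.22 to 1.7). Irf7 was at 48.5 CPM (43.1 to 54.5) and 97.9 CPM (85.2 to 112), a ratio of 2.02 (1.68 to 2.42). Isg15 was at 123 CPM (114 to 132) and 216 CPM (197 to 236), a ratio of 1.75 (1.56 to 1.97). Usp18, the protease that removes ISG15 and damps the receptor, was at 19.8 and 33.1 CPM, a ratio of 1.67 (1.23 to 2.26). Ifi44 was at 116 CPM (107 to 125) and 210 CPM (191 to 230), a ratio of 1.82 (1.61 to 2.05).

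Other effector genes of the same response were on the lower side. Ifit2 was at 127 CPM (119 to 137) in Control and 83.2 CPM (71.5 to 96.3) in pIVCL, a ratio of 0.653 (0.552 to 0.769), while Ifit1 of the same family was at 51.4 and 86.4 CPM, a ratio of 1.68 (1.39 to 2.02). Cmpk2 was at 55.3 and 36.8 CPM, a ratio of 0.666 (0.515 to 0.852). Oas1a, of a family of near copies whose counts are uncertain, was at 17 and 7.82 CPM, a ratio of 0.461 (0.258 to 0.775). Ifi35, an adaptor protein, and Trim30a had ratios of 0.708 and 0.759. The intervals of Ifit1 and Ifit2, both in the gene family's cluster on chromosome 19, lay on opposite sides of 1. The most abundant genes differed little: Bst2 was at 886 and 884 CPM and Ifitm3 at 1587 and 1704 CPM.

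Ifi27l2a had the highest ratio among the 31 genes measured in LSEC-like cells, and its level moved with leukocyte transcripts. Oas3, below the minimum of 20 UMIs, had 1 UMI in Control and 18 in pIVCL, with a ratio interval of 7.78 to 2053. Ifi27l2a was at 16.6 CPM (13.5 to 20.2) in Control and 90.6 CPM (78.4 to 104) in pIVCL, a ratio of 5.45 (4.26 to 7.01). Kupffer-like cells held 1870 and 1137 CPM of it, and leukocyte transcripts in LSEC-like cells summed to 264 and 1419 CPM. In LSEC-like cells without any leukocyte UMI, it was at 8.94 and 12.8 CPM from 24 and 11 UMIs, a ratio of 1.43 (0.632 to 3.03). In the same cells Irf7, Isg15, Ifi44 and Ifit1 had ratios of 1.95, 2.19, 1.73 and 1.92, all with intervals above 1, so their differences were also seen in cells without leukocyte UMIs. Rsad2 and Samhd1 lay on the other side there: Rsad2 was at 162 and 138 CPM over the class and at 133 and 170 CPM in these cells, and Samhd1 at 115 and 117 CPM over the class and at 118 and 80.1 CPM in these cells. Transcripts of the dissociation stress list, immediate-early and heat shock genes, summed to 5647 and 12064 CPM in LSEC-like cells, and their part in these differences was not tested.

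The shallow LSEC-like cluster 8, with 279 Control and 122 pIVCL cells, was the 1 LSEC-like cluster with many cells of both libraries. There 13 of 19 measured genes were above 1, where 40.9% of all genes were, with a median of 0.24 beside -0.11. In this cluster Irf7 was at 31.9 and 160 CPM, a ratio of 5.03 (2.23 to 12.1), and Isg15 at 86.1 and 177 CPM, a ratio of 2.06 (1.11 to 3.78). Ifit2 was at 98.8 and 8.44 CPM from 31 and 1 UMIs, a ratio of 0.0854 (0.0021 to 0.513). Ifi44 was at 63.8 and 59.1 CPM, and its ratio interval of 0.331 to 2.28 held 1. Thinned to 1000 UMIs, 11% (9.03 to 13.3) of Control and 19.9% (16.5 to 23.6) of pIVCL LSEC-like cells had an Isg15 UMI, with 163 and 85 cells left out and unthinned shares of 29.4% (median 6247 UMIs) and 36.8% (median 3276 UMIs). For Irf7 the thinned shares were 3.37% (2.29 to 4.78) and 10.2% (7.76 to 13.2), and the unthinned ones 19.8% and 26.2%.

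Position along the sinusoid was read from 2 lists of 11 genes each, pericentral and periportal. In Control, 361 LSEC-like cells held more pericentral UMIs and 601 more periportal UMIs, and 4 of the 31 measured interferon-stimulated genes were higher in the pericentral-leaning cells, where 48.1% of all genes were. The median log2 ratio, pericentral over periportal, was -0.14, beside -0.01 over all genes. Ifit1 was at 33.2 and 62.1 CPM in pericentral- and periportal-leaning Control cells, a ratio of 0.534 (0.402 to 0.702), and Isg15 at 95.2 and 139 CPM, a ratio of 0.686 (0.579 to 0.809). Ifi27l2a ran the other way, at 37.5 and 4.88 CPM. In pIVCL, with 94 pericentral- and 446 periportal-leaning cells, 10 of 30 genes were higher in the pericentral-leaning cells, where 44.7% of all genes were, with a median of -0.13 beside -0.03 over all genes. Samhd1 (170 and 107 CPM, ratio 1.58, 1.18 to 2.09) and Ifi27l2a (177 and 73.2 CPM) were higher in them. Both genes had lower pIVCL levels in LSEC-like cells without any leukocyte UMI, as given above. Kupffer-like cells of Control and pIVCL held 860 and 506 CPM of the pericentral list. They held 499 and 266 CPM of the periportal list. Leukocyte RNA was not left out of the lean comparison, and its part there was not tested. A lean is a range of counts and not a cell type, and 91 Control and 63 pIVCL cells were tied. Over all LSEC-like cells the pericentral list itself summed to 2741 CPM in Control and 865 CPM in pIVCL, and the periportal list to 3706 and 2621 CPM. The same lean may thus hold different cells in the 2 libraries.

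In T and B cell-like cells the counts past 1.5-fold were small and cannot be called a trait of the list. The counts higher were near the shares of all genes, and the counts lower were 1 gene each. In T cell-like cells, 8 of 24 measured genes were above 1, where 50% of all 7523 genes were. There 2 genes, Ifitm3 and Ifit3, were at least 1.5-fold higher, where 8.83% of all genes were, and 1, Ifi27l2a, was at least 1.5-fold lower, where 4.72% were. In B cell-like cells, 9 of 26 were above 1, where 60.7% of all 8533 genes were, 2, Ifitm3 and Bst2, were at least 1.5-fold higher, where 7.88% were, and 1, Oasl1 (28.6 and 11.8 CPM from 14 and 25 UMIs), was at least 1.5-fold lower, where 1.42% were. The medians were -0.10 in T and -0.13 in B cell-like cells, beside 0.00 and 0.09 over all genes. In T cell-like cells the interval lay above 1 for 3 genes and below 1 for 2, where it did for 13.7% and 11.2% of all genes. In B cell-like cells it lay above 1 for 2 and below 1 for 3, where it did for 11.3% and 5.14%, and it held 1 for the other genes of each class.

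Both lymphocyte classes, each pooled over its cells, had less Ifi27l2a and more Ifitm3 in pIVCL. Their make-up differed between the libraries. At Leiden resolution 2, the T cell-like cluster led by Cxcr6 held 144 Control and 67 pIVCL cells. Another, with Cd8b1 and Il7r among its top genes, held 45 and 260. The B cell-like cluster led by Cd83 held 3 and 190 cells, and that led by Cd79a 107 and 361. The part of this mix in the differences was not tested. Ifi27l2a was at 828 CPM (772 to 888) in Control and 381 CPM (339 to 427) in pIVCL T cell-like cells, and at 639 CPM (570 to 714) and 422 CPM (394 to 450) in B cell-like cells. Ifitm3 was at 81.6 and 204 CPM in T cell-like cells and at 123 and 232 CPM in B cell-like cells. Hepatocyte transcripts summed to 7810 and 18411 CPM in T cell-like cells and to 12853 and 21986 CPM in B cell-like cells. In the cells in the lower part of each class by hepatocyte RNA, the Ifitm3 ratio was 2.17 (1.44 to 3.26) in T and 1.54 (1.06 to 2.3) in B cell-like cells. There the Ifi27l2a ratio was 0.505 (0.418 to 0.607) and 0.805 (0.695 to 0.934). The B cell-like Bst2 difference, 93.9 and 164 CPM over the class, had a ratio of 1.33 (0.932 to 1.94) in those cells.

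Of 21 genes measured in all 5 classes, 0 had a ratio on the same side of 1 in all 5, where 13.4% of all genes did. This count takes the side of 1 without the intervals, and most intervals in T and B cell-like cells held 1. The Bst2 interval lay above 1 in 4 classes and held 1 in LSEC-like cells, at a ratio of 0.998 (0.947 to 1.05). The Ifitm3 interval lay above 1 in 4 classes and below 1 in Kupffer-like cells. Of 30 genes measured in both hepatocyte-like and Kupffer-like cells, 23 were higher in the pIVCL library in hepatocyte-like cells and lower in Kupffer-like cells, where 28.5% of all genes were. In the mitochondria-poor hepatocyte-like cells 9 of 24 genes were above 1, so this count depends on the choice of cells. For Irf7, the ratio of pIVCL to Control was 2.23 in hepatocyte-like, 2.02 in LSEC-like and 0.73 in Kupffer-like cells, and its intervals lay above, above and below 1. In Control, Irf7 in Kupffer-like cells was at 600 CPM against 19.5 CPM in hepatocyte-like cells, and in pIVCL at 438 against 43.6 CPM. Every class comparison uses the same pair of libraries, so these directions are not independent of each other.

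Other genes of the pathway, from lists of genes named by role, were read the same way. Among 51 further interferon-stimulated genes, 26 of 43 measured were above 1 in LSEC-like cells, 5 of 48 in Kupffer-like cells and 25 of 36 in hepatocyte-like cells, where 49.7%, 36.6% and 51.4% of all genes were, with medians of 0.08, -0.30 and 0.11. In LSEC-like cells their sum went the other way, from 7314 CPM in Control to 5842 CPM in pIVCL. In hepatocyte-like cells Apol9a, an apolipoprotein L family gene, was at 26.8 and 67.1 CPM (ratio 2.51), and Ifi27 at 57.7 and 118 CPM (ratio 2.04). Ifi27 was also higher in pIVCL Kupffer-like cells, at 64.4 and 143 CPM, while its relative Ifi27l2a was lower. Slfn9, a Schlafen family gene, was at 52.7 and 18.4 CPM there. In LSEC-like cells Ly6a (Sca-1), an endothelial and progenitor surface protein, was at 586 and 178 CPM, a ratio of 0.304 (0.273 to 0.338), and Helz2, a helicase coactivator, at 35.9 and 86.9 CPM.

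Genes best known from interferon-gamma were higher as a sum in pIVCL LSEC-like cells. Of 17 genes of the guanylate-binding, immunity-related GTPase and chemokine groups, 15 were measured there and 11 were above 1. At least 1.5-fold higher were 3, where 6.36% of all genes were, and 0 were lower by that fold, where 4.62% were. The sum of the list was 1254 CPM in Control and 2449 CPM in pIVCL. Cxcl9, a T cell chemokine, was at 285 and 1139 CPM, and Iigp1, an immunity-related GTPase, at 295 and 545 CPM. Most of the difference in the sum lay in Cxcl9 and Iigp1. Cxcl9 was also among the top genes of LSEC-like cluster 6, which held 16 Control and 475 pIVCL cells. Irf1, a factor shared by both interferon pathways, was at 189 and 351 CPM, and Irf8, a factor of myeloid cells, at 75.2 and 243 CPM. In Kupffer-like cells the same list summed to 1088 and 845 CPM, with Gbp3 at 149 and 62 CPM, and Irf1 was at 133 and 69.6 CPM. In hepatocyte-like cells it summed to 559 and 586 CPM, with the GTPases Irgm1 at 20.9 and 39.1 CPM and Igtp at 18.3 and 31.2 CPM, and Irf1 was at 7.39 and 17.9 CPM.

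Negative regulators, sensors and adaptors were read last. Of 10 negative regulators, 7 of 9 measured were above 1 in LSEC-like, 1 of 8 in Kupffer-like and 1 of 8 in hepatocyte-like cells, where the 1 above was Samd9l (10.3 and 20.7 CPM). The same shares of all genes above 1, 49.7%, 36.6% and 51.4%, apply to these small counts and to those of the GTPase list and the sensors. Socs3, the feedback inhibitor of JAK signalling, was at 382 and 563 CPM in LSEC-like cells, at 30 and 4.19 CPM in Kupffer-like cells and at 18.1 and 9.53 CPM in hepatocyte-like cells. Of 12 further sensors and adaptors, 6 of 9 measured were above 1 in LSEC-like, 2 of 11 in Kupffer-like and 6 of 7 in hepatocyte-like cells. The adaptor gene Tmem173 (STING) was at 33.8 and 57 CPM in LSEC-like cells, and the DNA sensor gene Mb21d1 (cGAS) at 12.1 and 22.1 CPM.

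How often the genes shared a cell was read in the thinned cells. In pIVCL LSEC-like cells, 89.3% (81.7 to 94.5) of 103 cells with an Isg15 UMI held a UMI of another of the 31 genes, against 76.9% (72.5 to 80.8) of 415 cells without one. In Control the shares were 85.7% (77.2 to 92) of 98 cells and 76.3% (73.1 to 79.2) of 792 cells. In pIVCL hepatocyte-like cells, 65.5% (45.7 to 82.1) of 29 cells with an Rsad2 UMI held another, against 39.6% (37 to 42.2) of 1388 cells without. For Isg15 in the same cells the shares were 47.8% (35.4 to 60.3) and 37.9% (35.3 to 40.5), with intervals that overlap. For Rsad2 in Control LSEC-like cells the order was the other way, at 70.1% (59.4 to 79.5) of 87 cells with and 76.6% (73.5 to 79.5) of 803 cells without. The intervals of cells with and without the gene were apart for Isg15 in pIVCL LSEC-like cells and for Rsad2 in pIVCL hepatocyte-like cells. They overlapped in every other case read, among them Isg15 in Control LSEC-like cells and all cases of Ifit1 and Ifit3. All cases in Kupffer-like, hepatic stellate-like and vascular endothelial-like cells overlapped too. The same shares were not read for genes outside the list, so they cannot be called a trait of it. These shares come from cells of 1 library and carry no replicate error.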

How the data were processed

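Each library was a mixed liver cell suspension run on the 10x Genomics 3' kit (v2 per the labels' protocols). The deposited values are UMI counts per gene and barcode; the authors made them with Cell Ranger 3.0.2 and build mm10, per the submitters' processing notes. No barcode had under 500 UMIs. Total UMIs were 24637681 in Control (3574 barcodes) and 38154000 in pIVCL (7042 barcodes). Barcodes with under 200 genes or over 25% mitochondrial UMIs were left out (the latter removed 848 and 1590), as were the 8 and 3 cells called by Scrublet, so doublets were in effect not removed.

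Cells were clustered in scanpy 1.11.5 (Python 3.11.15, leidenalg 0.10.2; 2000 variable genes without the interferon lists, 30 principal components, Leiden resolution 1). A cluster was named only with at least 3 markers detected, giving 18 classes. UMIs were summed per class and library. Ratios use plain CPM, and log2 ratios CPM plus 20, over genes with at least 20 UMIs in both libraries together. Intervals are exact Poisson for levels, exact conditional binomial for ratios and Clopper-Pearson for shares (scipy 1.17.1). The highest level a count of 0 allows was set by 3 UMIs. The code was tested on simulated data. With 1 library per group, no test was made.

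The 34 genes and all lists were chosen with earlier results of these data known, and 233 of 236 list symbols were found. Values are given in full for the 5 highest levels and the 4 highest and 4 lowest log2 ratios of a class, for the 2 largest differences of each other list, and for Ifnb1, Ifnar1, Ifnar2 and Irf1 (a further gene of this rule is not reported here); any other gene was chosen after its values were seen. Alternatives covered cell filters, doublet scores, cell classes, pseudocount, minimum UMIs, scaling, cell weights and the fold used.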

Additional observations from a re-analysis of the deposited data

How the results depend on the processing

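No paired analysis was possible because each group held 1 library. The median log2 ratio ranged from -0.36 to -0.14 in Kupffer-like cells over 15 alternatives, from -0.01 to 0.24 in LSEC-like cells over 14, from -0.14 to 0.16 in T cell-like cells over 12, from -0.22 to -0.07 in B cell-like cells over 13 and from -0.15 to 0.49 in hepatocyte-like cells over 20. In hepatocyte-like cells it reversed to -0.0567 with at least 1000 UMIs and at most 10% mitochondrial UMIs (3 lower), and was 0.49 with a pseudocount of 5 (14 higher), 0.15 with 50 (3 higher) and 0.11 with equal weight per cell (1 lower). A lower fold for a call gave 15 higher and a call at 2-fold 2 higher there. In LSEC-like cells, a pseudocount of 5 gave 2 lower, the lower fold 7 higher and 5 lower, and at 2-fold 1 higher. In Kupffer-like cells, the stricter cell filter gave 2 lower, a pseudocount of 50 gave 2 lower, equal weight 1 higher, the lower fold 1 higher and 14 lower, and 2-fold 0 lower. In T cell-like cells, classes set per cell and resolution 2 each gave 4 higher and 2 lower, a pseudocount of 5 gave 3 lower and of 50 1 higher, a minimum of 50 UMIs 1 higher, scaling without abundant genes 2 lower, the lower fold 4 higher and 5 lower, and 2-fold 1 higher. In B cell-like cells, leaving out top doublet scores, classes per cell, scaling without abundant genes and centring each gave 2 lower, a pseudocount of 5 gave 6 higher and 5 lower, of 50 1 higher and 0 lower, a minimum of 50 UMIs 0 lower, the lower fold 6 higher and 8 lower, and 2-fold 0 higher and 0 lower. Of alternatives chosen after seeing the data, at most 10% mitochondrial UMIs alone reversed the hepatocyte-like median to -0.0914 (2 lower), and cluster 2 alone to -0.15 (2 higher, 4 lower). LSEC-like cluster 8 alone gave 7 higher and 2 lower, Kupffer-like cluster 1 alone 2 higher, and cluster 9 alone a median of -0.14 with 2 lower. In cells low in hepatocyte RNA, 1 gene was higher and 3 lower in T cell-like cells and 0 higher in B cell-like cells. Of 60 shares of cells thinned to 500 or 2000 UMIs, 42 moved beyond their interval. A share of cells with a UMI depends on how many UMIs are drawn from each cell, so these shares can be compared only at the same depth. T cell-like cells with the 34 genes among the variable genes were not run, since 64 pIVCL cells remained. In T and B cell-like cells, 10 and 8 of the 34 genes had under 20 UMIs and were not compared.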
